A study of Mus musculus with 18 samples.

Results

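The genes of the proteasome in mouse LT-HSCs, the long-term stem cells of the bone marrow from which all blood cells descend, are described here across fresh cells and cells kept in culture at 2 pH values. Members were taken by symbol, as every Psma, Psmb, Psmc, Psmd, Psme, Psmf or Psmg gene with a number and without a pseudogene suffix. Of 21003 gene symbols in the deposited table, 51 fitted, and 50 reached at least 10 counts in at least 3 libraries; Psmb11, the thymus subunit, did not. Of the 50, 48 encode proteasome subunits, activators, inhibitors or assembly factors, while Psmc3ip and Psme3ip1 carry the symbol as interaction partners and are not subunits. The 18 libraries were each made from 100 LT-HSCs of wild-type mice aged 8 to 12 weeks, named B6.SJL in the growth protocol and C57 B6 in the genotype field. They form 3 groups of 6: fresh uncultured cells at pH 7.4, cells held for 48 h at pH 7.4 and cells held for 48 h at pH 6.9. Both cultures had medium with 10% fetal bovine serum, 3% oxygen and cytokines at 50 ng/ml. In such bulk samples fewer cells of a type and less RNA per cell cannot be told apart. Within every group the odd-numbered and the even-numbered mice carry different first index codes: 701 and 702 in fresh cells, 707 and 708 at pH 7.4, 705 and 706 at pH 6.9. Mouse parity within a group and the first index therefore cannot be told apart, and neither can pH and first index within a parity.

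The proteasome is the barrel-shaped protease that degrades proteins tagged with ubiquitin. Its core particle stacks rings of alpha subunits (Psma genes), which gate the entrance, around rings of beta subunits (Psmb genes), of which Psmb5, Psmb6 and Psmb7 carry the active sites. The regulatory cap has a base with a ring of ATPases (Psmc genes) that unfold the substrate and a lid (Psmd genes) that removes the ubiquitin chain. In blood cells and after interferon, Psmb8, Psmb9 and Psmb10 can take the places of Psmb5, Psmb6 and Psmb7, which gives the immunoproteasome, and Psme1 with Psme2 forms an alternative activator that opens the core without ubiquitin. Stem cells of the blood are known for a low rate of protein synthesis and for their sensitivity to faults in protein quality control.

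Compared per kilobase of transcript, the alpha and constitutive beta genes of the core had the highest class medians. The median level over the 15 libraries with enough counts and genes detected, in CPM (counts scaled to a library total of 1e+06) per kb of the longest coding transcript, ranked Psmb2 first at 753, followed by Psmb3 at 673, Psma7 at 658, Psmb6 at 581 and Psma1 at 562. Class medians were 425 CPM per kb for 8 alpha genes, 351 for 7 constitutive beta genes, 261 for 6 base ATPases and 207 for 3 base non-ATPases. They were 190 for 8 lid genes, 123 for the 3 immune beta genes, 93.1 for 7 assembly chaperones and 81.8 for 5 activators. The classes overlapped, and the activators Psme2 and Psme1 stood at 432 and 352 CPM per kb, above core genes such as Psmb7. Among the immune subunits Psmb8 stood at 356 CPM per kb, beside 351 for its counterpart Psmb5, while Psmb9 stood at 99.3 against 581 for Psmb6 and Psmb10 at 123 against 134 for Psmb7. The lowest were Psma8, the testis alpha subunit, at 8.5, Psme2b, a close copy of Psme2 whose reads the quantification could split or share, at 8.0, and Psme4, the nuclear activator PA200, at 7.5. Levels per kb depend on which transcript a cell uses, which these counts do not show.

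The members' promoters were searched for 6 short motifs on both strands, from 250 bases before to 50 bases after each start in the RefSeq table of GRCm38.p6, which held 42 of the 50 members. The motif of ETS factors, CCGGAAG, was present at 16 of 42 members (38.1%) against 9.9% of all 27025 genes in the table, whether detected in these cells or not. The antioxidant response element, to which Nrf1 and Nrf2 bind, was searched as TGACNNNGC (6 of 42 members, 14.3%, against 14.0% of all genes) and as TGAGNNNGC (13 of 42, 31.0%, against 19.8%). The CCAAT box was present at 15 of 42 (35.7%, against 41.1%), the E-box CACGTG, which reads the same on both strands, at 5 (11.9%, against 8.1%) and the interferon element core, GAAA and again GAAA after any 2 bases, at 5 (11.9%, against 4.0%). Matches of different motifs were counted separately even where they overlap, and a match describes letters and is no binding site. The stretches below lie upstream of the RefSeq start on GRCm38.p6, are written 5′ to 3′ on the gene's strand and have the motif in capitals. Psmb5 and Psmb6, active-site subunits that rose in odd-numbered mice, hold TGACNNNGC at chr14:54618014-54618062 and chr11:70525328-70525356. The other members with TGACNNNGC were Psmd12, also called higher in odd-numbered mice, and Psmc6, Psmd9 and Psme4, which were not called there. Psmd6 of the lid and the chaperone Psmg1, which moved in opposite directions in the sets of mice, hold CCGGAAG at chr14:14120964-14121010 and chr16:95991003-95991049. Of the 16 members with CCGGAAG, Psmd6, Psmd12 and Psmg1 were called higher at pH 6.9 in odd-numbered mice. There 20 of 50 members were called higher, but Psmb1, Psmb2, Psmb7, Psmd7 and Psmg2 among them were not in the 42 searched. The part of these motifs in the members' values was not tested. Psmd2 of the base holds CCGGAAG, on the other strand, at chr16:20651606-20651651 and passed no pH test. Psma7, the member with the widest difference among those called, holds CCAAT at chr2:180042636-180042680.
Psmb5: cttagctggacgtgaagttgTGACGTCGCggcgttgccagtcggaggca
Psmb6: cagaggcggactaaagagagTGACGGAGC
Psmd6: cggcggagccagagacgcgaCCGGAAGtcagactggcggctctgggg
Psmg1: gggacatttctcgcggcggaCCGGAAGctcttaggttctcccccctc
Psmd2: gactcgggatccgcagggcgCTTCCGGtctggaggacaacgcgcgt
Psma7: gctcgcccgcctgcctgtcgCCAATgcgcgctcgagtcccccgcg

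Total counts per library ran from 1640817 to 7508120, apart from fresh replicate 1 with 6311 counts, in which 11 members were at 0. Fresh replicate 4 and pH 6.9 replicate 3 stood apart, with 9408 and 8925 genes detected against 11225 to 12792 in the other 15 libraries. Members took 3.67% of counts in fresh replicate 4 and 3.48% in pH 6.9 replicate 3, and between 1.33% and 2.17% in the 15 libraries. In fresh replicate 4, 41 of 50 members lay above all 15 libraries and 4 below them (Psmc1, Psmd2, Psmd3 and Psme4); in pH 6.9 replicate 3, 37 lay above and 7 below. Psmb6 reached 3056 and 2508 CPM there, against 295 to 808 CPM in the 15, while Psmd3, a lid subunit, stood at 1.73 and 2.63 CPM, against 73.9 to 183 CPM. These 3 libraries are part of the comparisons over 18 libraries and are left out of those over 15. Of 10 stem cell markers, 9 were detected in each of the 15 libraries, with a summed level of 490 to 1780 CPM. Apart from the index codes, the libraries of a group are told apart by mouse number. In each fit the p-values and standard errors rest on a spread between libraries that is estimated over all its groups or sets together. A small set is thus assumed to vary like the others.

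**Figure D1:**
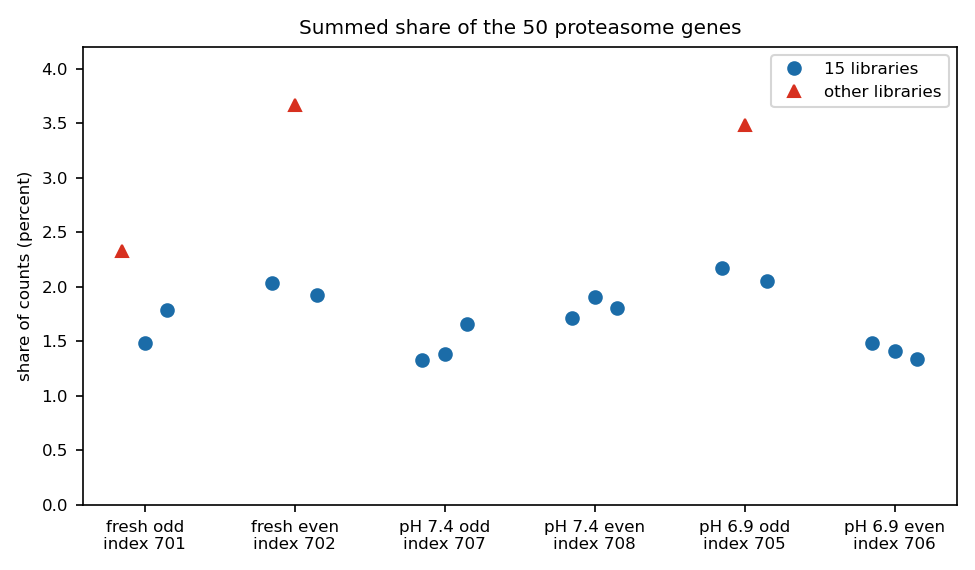
Share of each library's counts taken by the 50 proteasome genes (percent, y axis) in the 6 sets of group and mouse parity, with the first index under each set. Circles are the 15 libraries (1.33% to 2.17%) and triangles the other 3 (2.33%, 3.67% and 3.48%); within the 15, pH 6.9 odd lies above pH 7.4 odd and pH 6.9 even below pH 7.4 even.

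Over all 18 libraries no member passed the test in any of the 3 group comparisons, nor did any of the 10104 genes tested (percent called 0). Between pH 6.9 and pH 7.4, 40 of 50 members had a positive log2 fold change, against 49% of all genes, with a median of 0.49 beside -0.01 for all genes. None of the 50 had an unadjusted p under 0.05, a level reached by 2.51% of genes. The smallest p belonged to Psmc5, a base ATPase, whose log2 fold change was 0.88 ± 0.48 (SE, edgeR adjusted p = 0.997). Its CPM was 250 at the lowest, 404 at the median and 1507 at the highest of 6 libraries at pH 6.9, and 223, 334 and 387 at pH 7.4. Those ranges overlap, and the highest value belongs to pH 6.9 replicate 3. The chaperone Psmg4 (0.77 ± 0.44) and the active-site subunit Psmb6 (0.98 ± 0.57) followed, both with adjusted p = 0.997. With limma-voom and quality weights for libraries, Psmc5 and Psmg4 turned sign, to -0.015 for Psmc5 and -0.022 for Psmg4.

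Split by mouse parity, most members were higher at pH 6.9 than at pH 7.4 in odd-numbered mice and lower in even-numbered mice. In odd-numbered mice (2 libraries at pH 6.9, 3 at pH 7.4) 20 of 50 members were higher at pH 6.9 and 0 lower, where 5.07% of 10659 genes were called higher and 6.01% lower. In even-numbered mice (3 against 3) 9 members were lower at pH 6.9 and 0 higher, where 4.07% of genes were called lower and 2.67% higher. The median log2 fold change was 0.64 in the odd-numbered set and -0.49 in the even-numbered set, beside -0.08 and 0.04 over all genes. The libraries of 37 members did not overlap in odd-numbered mice, all 37 higher at pH 6.9 (19% of genes), and those of 35 did not overlap in even-numbered mice, all lower (1800 of 10659 genes). The test of the difference between the 2 pH effects called 31 members, each with a higher value in odd-numbered mice, where 9.09% of genes were called in that direction and 8.96% in the other. In all, 8 members were called in both sets with opposite sign, namely Psma3, Psma7, Psmb7, Psmc4, Psmd6, Psmd7, Psmd14 and Psmg1. For 44 of 50 members the sign was positive in the first set and negative in the second.

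The number called depended on single libraries. In odd-numbered mice it ran from 5 without pH 6.9 replicate 1 to 32 without pH 7.4 replicate 5, with 8, 10 and 11 without pH 7.4 replicate 1, pH 7.4 replicate 3 and pH 6.9 replicate 5. Psmb7, Psmc5, Psmd6, Psmd14 and Psme2 passed in all 5 of those fits. In even-numbered mice it ran from 0 without pH 7.4 replicate 6 or pH 6.9 replicate 6 to 4 without pH 6.9 replicate 2, and no member passed in all 6. With limma-voom, 24 members were called in even-numbered mice, among them Psmb5, Psmb8, Psme2, Psme3 and Psmg3 (adjusted p = 0.0282, 0.0464, 0.0359, 0.00948 and 0.0174). Without the filter on low counts, the even-numbered calls of Psmb7 and Psmd6 were lost (adjusted p = 0.0579 and 0.0707). The difference between the sets was called for 25 to 35 members whichever of the 11 libraries was left out. With the mouse number as a block, 11 members were called in odd-numbered mice, and with all 18 libraries 0 members were called in either set or for the difference. For members named below that lost an odd-numbered call with 18 libraries, the fold changes were larger than with 15. They included 1.96 for Psmb8 and 0.88 for Psme1 (adjusted p = 0.131 and 0.163). In even-numbered mice Psmb7 kept a value of -0.645.

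Marker levels also differed between the sets. The 10 stem cell markers summed to 490 to 740 CPM at pH 7.4 and to 1290 to 1780 CPM at pH 6.9 in even-numbered mice, and to 1170 to 1650 CPM and 1130 to 1510 CPM in odd-numbered mice. The summed level of 6 granulocyte and monocyte progenitor markers was 1610 to 4800 CPM in even-numbered mice at pH 7.4, with S100a8 at 0 in all 3 libraries, and 28.9 to 43.8 CPM at pH 6.9, with S100a8 and S100a9 at 0. In odd-numbered mice it was 40.1 to 69.4 CPM at pH 7.4, with Elane and S100a9 at 0, and 163 to 165 CPM at pH 6.9, with S100a8 and S100a9 at 0. The 4 class II antigen-presentation genes summed to 127 to 287 CPM in odd-numbered mice at pH 6.9 and to 12.6 to 28.1 CPM there at pH 7.4, and to 15.6 to 24.8 CPM (H2-Aa at 0) and 17.9 to 23.3 CPM in even-numbered mice. In even-numbered mice the 4 T and NK cell markers summed to 53.8 to 109 CPM at pH 7.4 (Cd3g at 0) and 4.84 to 10.3 CPM at pH 6.9 (Cd3e, Cd3g and Gzma at 0), and the 4 mast cell and basophil markers to 37.3 to 180 CPM and 1.76 to 23.9 CPM (Ms4a2 at 0). In odd-numbered mice the same lists summed to 9.65 to 22.4 CPM at pH 7.4 and 23.6 to 65 CPM at pH 6.9 (Cd3e, Cd3g and Gzma at 0 at both), and to 4.02 to 88.4 CPM (Mcpt8 and Fcer1a at 0) and 0 to 18.2 CPM (Mcpt8, Fcer1a and Ms4a2 at 0). The 4 erythroid markers in the table summed to 145 to 196 CPM at pH 6.9 (Klf1 and Car1 at 0) and 10.8 to 115 CPM at pH 7.4 (Car1 at 0) in odd-numbered mice. In even-numbered mice their ranges overlapped, and the megakaryocyte, monocyte and B cell lists overlapped in both sets. The part of these lists in the proteasome values was not tested. Total counts overlapped between the pH values in both sets.

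**Figure D2:**
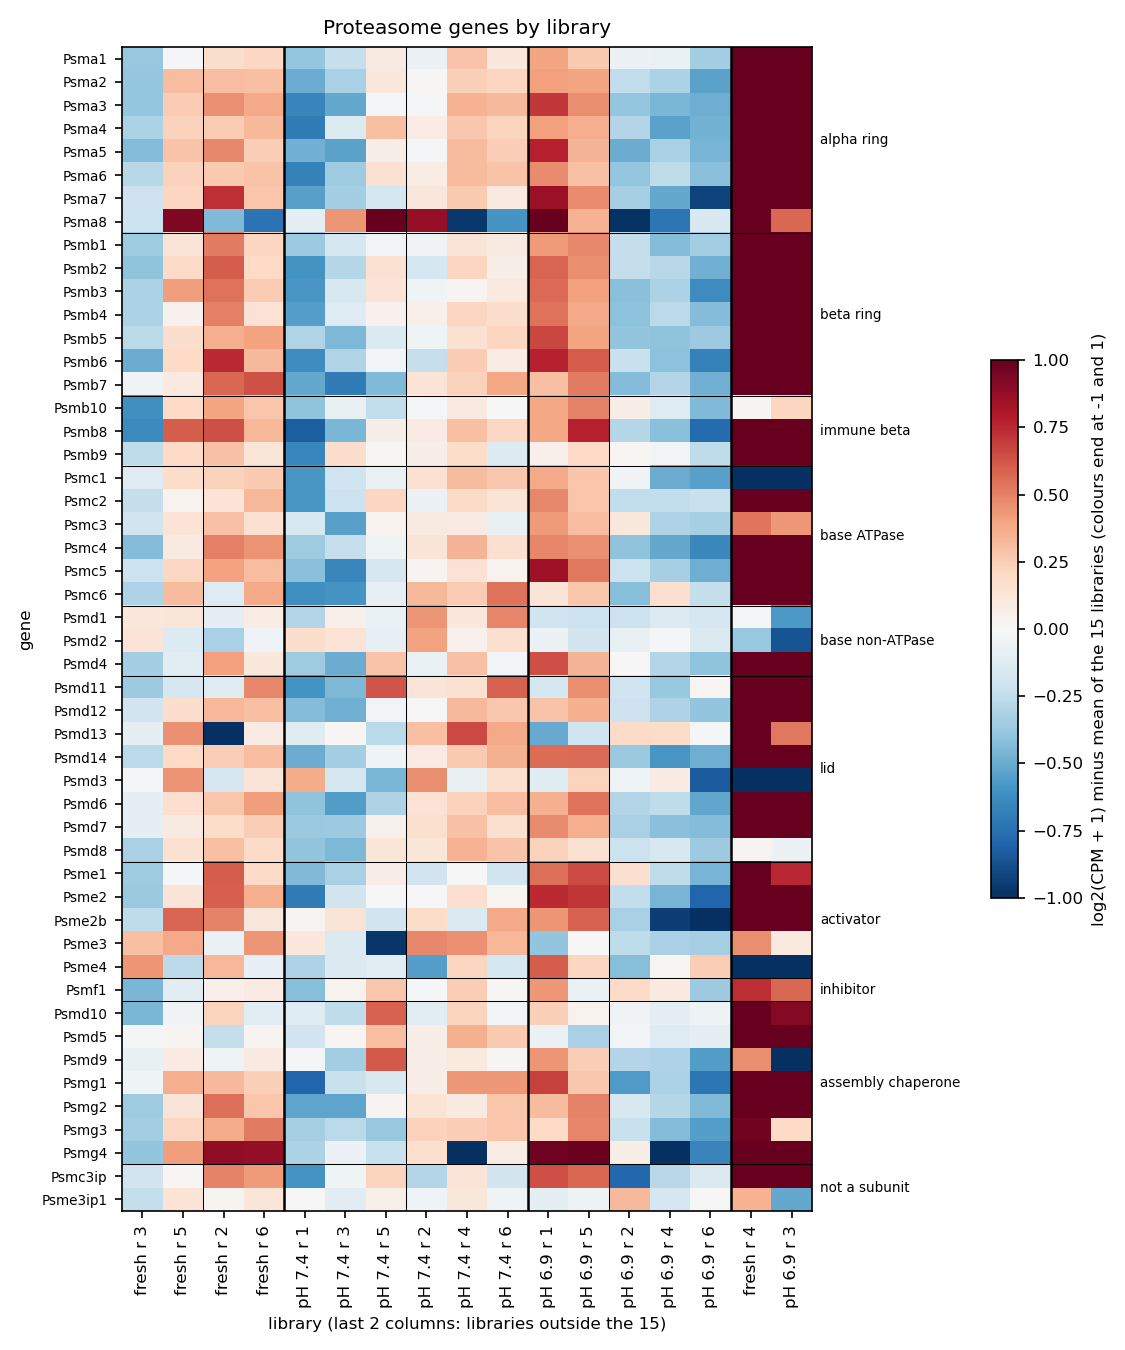
Heat map of 50 proteasome genes (y axis, grouped by role) in 15 libraries ordered by group and mouse parity, with fresh replicate 4 and pH 6.9 replicate 3 as the last columns (x axis). Colour is log2(CPM + 1) minus the gene's mean over the 15 libraries, and ends at -1 and 1; red marks most members in pH 6.9 replicates 1 and 5 and blue in pH 6.9 replicates 2, 4 and 6.

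**Figure D3:**
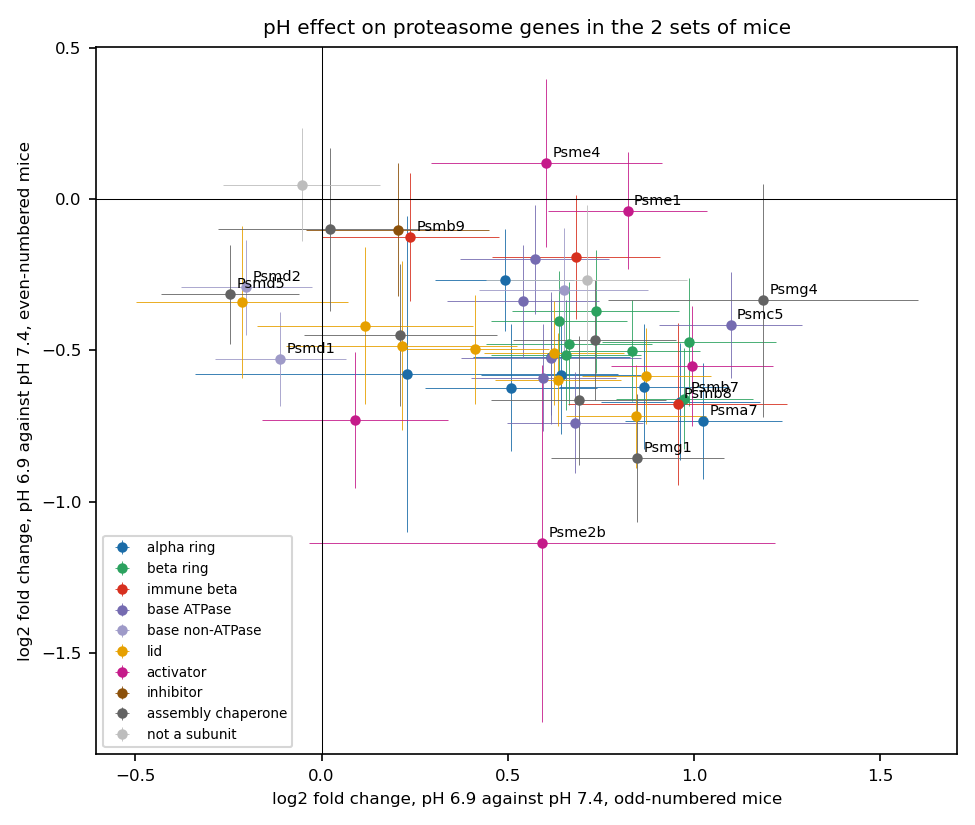
Log2 fold change of pH 6.9 against pH 7.4 in odd-numbered mice (x axis) and in even-numbered mice (y axis) for 50 proteasome genes, coloured by role, with bars of 1 SE. Of the 50 points, 44 lie right of 0 and below 0, and Psmd1, Psmd2, Psmd5 and Psmd13 lie below 0 on both axes.

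Of the 7 genes of the constitutive beta ring, 6 rose at pH 6.9 in odd-numbered mice, 1 fell in even-numbered mice and all 7 were called for the difference. Psmb7, the trypsin-like active site, stood at 180 and 209 CPM in the odd-numbered libraries at pH 6.9 and at 101.5, 89.3 and 107 CPM at pH 7.4. The order turned over in even-numbered mice, with 107.5, 118.5 and 104 CPM at pH 6.9 and 160, 171 and 190 CPM at pH 7.4. Its log2 fold change was 0.97 ± 0.18 (SE, adjusted p = 0.00365) and -0.66 ± 0.17 (adjusted p = 0.0244), and the difference was 1.63 ± 0.25 (adjusted p = 0.000232), the smallest adjusted p among the 50. The libraries of the 2 pH values did not overlap in either set.

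Psmb5, the chymotrypsin-like active site, stood at 517 and 428 CPM in odd-numbered mice at pH 6.9 and at 264, 238 and 294 CPM at pH 7.4. The fold change was 0.83 ± 0.18 there (adjusted p = 0.00851) and -0.50 ± 0.17 in even-numbered mice (adjusted p = 0.0782), where 248, 245 and 252.5 CPM at pH 6.9 lay below 315, 363 and 377 CPM at pH 7.4. Psmb6, the caspase-like active site, read 808 and 719 CPM in odd-numbered mice at pH 6.9 against 307, 384 and 463.5 CPM (0.99 ± 0.23, adjusted p = 0.0125). In even-numbered mice its libraries overlapped, and the value was -0.47 ± 0.21 (adjusted p = 0.204). The other genes of the ring ranged from 0.64 to 0.74 in odd-numbered mice and from -0.52 to -0.37 in even-numbered mice, and Psmb3 was the gene of the ring that did not pass the test in odd-numbered mice (0.66 ± 0.22, adjusted p = 0.0623).

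In the alpha ring 3 of 8 genes rose at pH 6.9 in odd-numbered mice, 2 fell in even-numbered mice and 7 were called for the difference. Psma7 had the widest difference of the called members, 1.76 ± 0.28 (adjusted p = 0.000388). It stood at 1294 and 984 CPM at pH 6.9 and at 486.5, 562 and 629 CPM at pH 7.4 in odd-numbered mice (1.03 ± 0.21, adjusted p = 0.00585). The even-numbered libraries read 563, 497 and 374 CPM at pH 6.9 and at 769, 853 and 761.5 CPM at pH 7.4 (-0.73 ± 0.19, adjusted p = 0.0277). Neither set overlapped between pH values. Psma3 followed with 0.96 ± 0.21 and -0.67 ± 0.19 (adjusted p = 0.00896 and 0.044). Its even-numbered call was lost with the mouse number as a block (adjusted p = 0.0518) and with DESeq2 size factors (adjusted p = 0.0512). The exception of the ring was Psma8, at 7.63 to 37.9 CPM over the 15 libraries, with a difference of 0.81 ± 0.77 (adjusted p = 0.514).

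In the base, the 6 ATPases all had positive values in odd-numbered mice, from 0.54 to 1.10, and negative values in even-numbered mice, from -0.74 to -0.20; 2 rose, 1 fell and 5 were called for the difference. Psmc5 had the highest value of the ATPases, 1.10 ± 0.19 (adjusted p = 0.00225), with 641.5 and 513 CPM at pH 6.9 above 267, 226 and 316 CPM at pH 7.4 in odd-numbered mice. Its value in even-numbered mice was -0.42 ± 0.17 (adjusted p = 0.17). Psmc4 was called in both sets (0.68 ± 0.18, adjusted p = 0.0232, and -0.74 ± 0.17, adjusted p = 0.0124), though with the mouse number as a block its adjusted p in odd-numbered mice was 0.0723.

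The base also holds the large scaffold subunits Psmd1 and Psmd2. Psmd1, which holds receptors for ubiquitin, stood at 406.5 and 400.3 CPM at pH 6.9 and at 380, 481.5 and 444 CPM at pH 7.4 in odd-numbered mice, an overlap (-0.11 ± 0.17, adjusted p = 0.738). It fell in even-numbered mice, from 631, 502 and 654.5 CPM to 402, 423 and 415 CPM (-0.53 ± 0.16, adjusted p = 0.0484; adjusted p = 0.0741 with the mouse number as a block, 0.0541 with DESeq2 size factors and 0.111 without the filter on low counts). Psmd2 was negative in both sets, -0.20 ± 0.18 and -0.29 ± 0.16 (adjusted p = 0.508 and 0.304). For neither was the difference between the sets called (adjusted p = 0.235 and 0.837). Psmd4, a ubiquitin receptor, had 0.65 ± 0.23 and -0.30 ± 0.21, and its difference of 0.95 ± 0.31 passed (adjusted p = 0.0377; 0.075 with the block), and did so in 4 of 11 fits that leave out a library. In odd-numbered mice Psmd4 had adjusted p = 0.0723, and 0.0433 with DESeq2.

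In the lid 4 of 8 genes rose at pH 6.9 in odd-numbered mice, 3 fell in even-numbered mice and 5 were called for the difference. Psmd14, the enzyme that cuts the ubiquitin chain from the substrate, stood at 592 and 595.5 CPM at pH 6.9 and at 284, 316 and 392 CPM at pH 7.4 in odd-numbered mice (0.84 ± 0.19, adjusted p = 0.00912). The even-numbered libraries stood at 309.5, 268 and 286.5 CPM at pH 6.9 and at 426, 482 and 512.5 CPM at pH 7.4 (-0.72 ± 0.17, adjusted p = 0.0176). Psmd6, a structural subunit whose promoter stretch is printed above, had 0.87 ± 0.17 and -0.58 ± 0.16 (adjusted p = 0.00516 and 0.0326). Psmd3, Psmd11 and Psmd13 passed neither pH test nor the test of the difference, with adjusted p between 0.27 and 0.86 for the difference.

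Among the activators the partners of the PA28 ring, Psme1 and Psme2, rose in odd-numbered mice. They lie near each other, but apart, on opposite strands at chr14:55578123-55581529 and chr14:55587441-55591113. Psme2 stood at 694 and 680.5 CPM at pH 6.9 against 255, 364.5 and 415 CPM at pH 7.4 (0.99 ± 0.22, adjusted p = 0.00841). The even-numbered libraries had 349, 300 and 239 CPM against 415, 464.5 and 419 CPM (-0.55 ± 0.20, adjusted p = 0.103), also without overlap. Psme1 rose by a like amount in odd-numbered mice (0.82 ± 0.21, adjusted p = 0.0201), but in even-numbered mice its libraries overlapped (-0.04 ± 0.19, adjusted p = 0.942). The difference between the sets was 1.55 ± 0.29 for Psme2 (adjusted p = 0.00141) and 0.86 ± 0.29 for Psme1 (adjusted p = 0.045), but that of Psme1 passed in 2 of 11 fits that leave out a library. Psme3, the nuclear activator PA28 gamma, and Psme4 passed no pH test in the fit over 15 libraries: Psme3 had 0.09 ± 0.25 and -0.73 ± 0.22 (adjusted p = 0.861 and 0.0569) and Psme4 0.60 ± 0.31 and 0.12 ± 0.28 (adjusted p = 0.223 and 0.862). Psme3 passed in even-numbered mice with DESeq2 (adjusted p = 0.0284), limma-voom (0.00948) and no filter (0.018). Psme2b, with 2.34 to 9.75 CPM in the 15 libraries, passed none either.

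Of the immune subunits, 1 of 3 rose in odd-numbered mice, none fell in even-numbered mice and 1 was called for the difference. Psmb8 stood at 714 and 938 CPM at pH 6.9 and at 308, 399 and 571 CPM at pH 7.4 in odd-numbered mice (0.96 ± 0.29, adjusted p = 0.0438). The even-numbered libraries held 449, 409 and 321 CPM at pH 6.9, below 580, 672 and 631 CPM at pH 7.4 (-0.68 ± 0.27, adjusted p = 0.143), and the difference was 1.63 ± 0.40 (adjusted p = 0.0085). Neither set overlapped between pH values, but in odd-numbered mice Psmb8 passed in 1 of 5 fits that leave out a library. Psmb10 had 0.68 ± 0.23 and -0.19 ± 0.20 (adjusted p = 0.0583 and 0.656) and Psmb9 0.24 ± 0.24 and -0.13 ± 0.21 (adjusted p = 0.569 and 0.804). With DESeq2 size factors Psmb10 passed in odd-numbered mice, at adjusted p = 0.0489, and with DESeq2 at adjusted p = 0.0316. The Psmb10 difference between the sets passed with DESeq2 (adjusted p = 0.0375) and limma-voom (adjusted p = 0.0326). Psmb8 passed as lower in even-numbered mice without the filter on low counts (adjusted p = 0.0197) and with limma-voom (adjusted p = 0.0464).

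**Figure D4:**
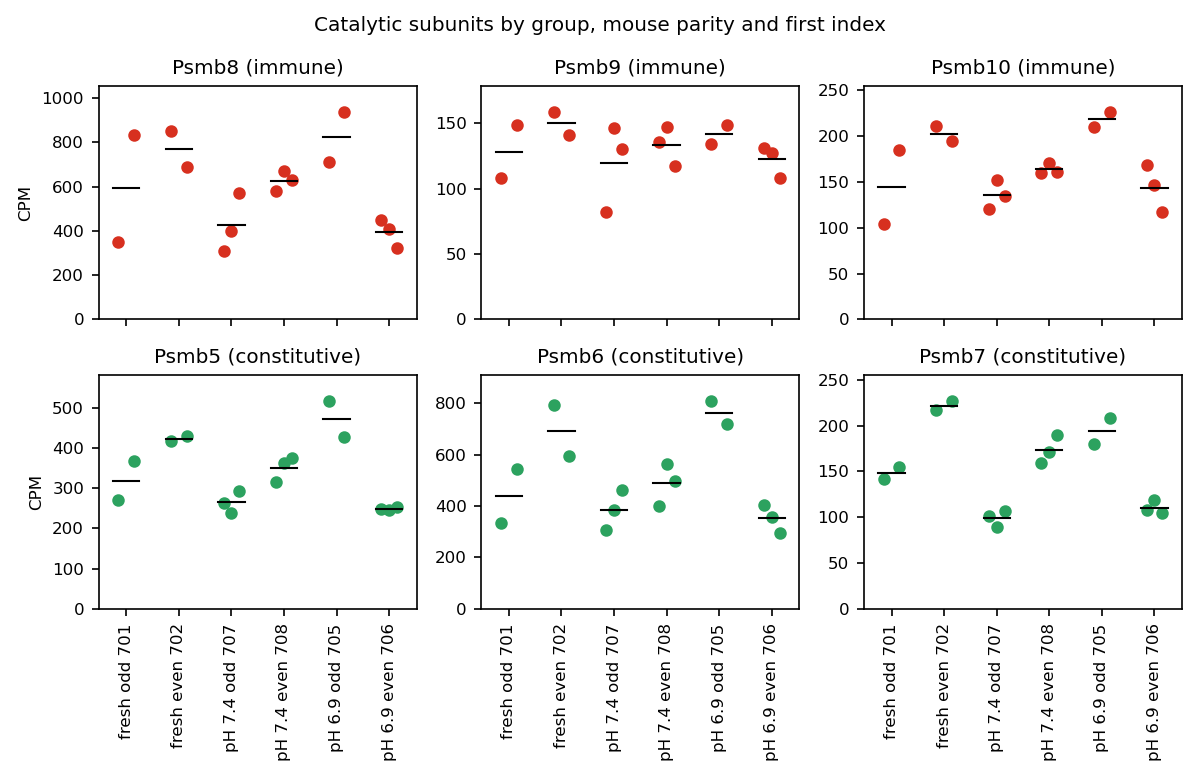
CPM (y axis, from 0) of the immune subunits Psmb8, Psmb9 and Psmb10 (upper) and their constitutive counterparts Psmb5, Psmb6 and Psmb7 (lower) in 15 libraries by group, mouse parity and first index (x axis). Points are libraries and lines are set means; in Psmb7, Psmb5 and Psmb8 the pH 6.9 points lie above those of pH 7.4 in odd-numbered mice and below them in even-numbered mice.

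The ratio of immune to constitutive subunits passed no test between the 3 groups. It was measured in 17 libraries as the log2 ratio of CPM, with 1 CPM added to each. For Psmb8 against Psmb5 the ratio was 0.88 ± 0.51 (SD, n = 6) at pH 6.9, 0.74 ± 0.27 (n = 6) at pH 7.4 and 0.98 ± 0.49 (n = 5) in fresh cells. For Psmb9 against Psmb6 it was -2.03 ± 0.60, -1.78 ± 0.26 and -2.10 ± 0.40, and for Psmb10 against Psmb7 0.00 ± 0.73, 0.18 ± 0.35 and -0.41 ± 0.71. In 9 exact two-sided permutation tests the smallest adjusted p was 0.614 (unadjusted exact permutation p = 0.0714, Psmb10 against Psmb7 between pH 7.4 culture and fresh cells), where the design can reach 0.00216. A p that misses the threshold does not show that the ratios were equal. The pH difference of the Psmb8 ratio was 0.14 with 17 libraries and -0.03 without pH 6.9 replicate 3, and that of the Psmb10 ratio -0.18 and 0.11. Within parity, where no test was run on the ratio, Psmb10 to Psmb7 was 0.12 to 0.23 at pH 6.9 and 0.25 to 0.76 at pH 7.4 in odd-numbered mice. The even-numbered libraries gave 0.17 to 0.64 at pH 6.9 and -0.24 to 0.00 at pH 7.4, the opposite order, without overlap in either set. For Psmb9 to Psmb6 the odd-numbered libraries ran from -2.58 to -2.26 at pH 6.9 and from -1.89 to -1.38 at pH 7.4, without overlap, and the even-numbered from -1.62 to -1.44 and from -2.08 to -1.56, with overlap. The Psmb8 ratio overlapped between pH values in both sets.

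Of the 7 assembly chaperones, which build the rings and the base before they join, 2 rose in odd-numbered mice, 1 fell in even-numbered mice and 3 were called for the difference. Psmg1, a partner in building the alpha ring, stood at 243 and 182 CPM at pH 6.9 and at 86.5, 129 and 136 CPM at pH 7.4 in odd-numbered mice (0.85 ± 0.23, adjusted p = 0.0252; 0.0656 with the mouse number as a block). The even-numbered libraries gave 102, 121 and 90.9 CPM at pH 6.9 and at 158, 204 and 205 CPM at pH 7.4 (-0.86 ± 0.21, adjusted p = 0.0212). Psmg3 had 0.69 ± 0.24 and -0.67 ± 0.21 (adjusted p = 0.065 and 0.0674), with a difference of 1.36 ± 0.32 that passed (adjusted p = 0.00606). Among the chaperones of the base, Psmd5 was negative in both sets (-0.25 ± 0.19 and -0.32 ± 0.16), and Psmd5, Psmd9 and Psmd10 were not called for the difference, with adjusted p of 0.884, 0.209 and 0.872. Nor was Psmg4 (1.52 ± 0.57, adjusted p = 0.0716). The inhibitor Psmf1 (PI31) had 0.20 ± 0.25 and -0.10 ± 0.22 (adjusted p = 0.649 and 0.853). The partners that are not subunits passed neither pH test; Psmc3ip had 0.71 ± 0.27 and -0.27 ± 0.24 (adjusted p = 0.0956 and 0.589).

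Within pH 6.9, 30 of 50 members were higher in odd-numbered than in even-numbered mice and 0 lower (7.36% of genes called higher, 7.02% lower), among them all 7 constitutive beta genes, with values from 0.79 to 1.12. At pH 7.4, 2 members were lower in odd-numbered mice and 0 higher (1.66% of genes called lower, 1.67% higher). These were Psmb7 and Psmd6, and 45 of 50 members were negative, with a median of -0.34, where 53.3% of genes were positive. The pH 6.9 count was 13 without replicate 1 or replicate 5, 28 without replicate 2 and 1 with all 18 libraries. The pH 7.4 count ran from 0 without replicate 3 or 6 to 7 without replicate 5, and was 12 with limma-voom and 5 with DESeq2.

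Against fresh cells, the even-numbered mice at pH 6.9 carried the calls. There 23 of 50 members fell and 0 rose (6.15% of genes called lower, 4.77% higher), with a median of -0.62 beside 0.06 for all genes. They included all 7 constitutive beta genes, 4 of 8 alpha, 4 of 8 lid, 4 of 7 chaperone, 2 of 6 ATPase, 1 of 5 activator and 1 of 3 immune genes. Psmb7 fell from 217 and 227 CPM in fresh cells to 107.5, 118.5 and 104 CPM (-1.01 ± 0.18, adjusted p = 0.00236). Psmc4 fell from 630 and 606 CPM to 335, 311 and 283.5 CPM (-0.997 ± 0.18, adjusted p = 0.00236). Psma7 fell from 1180 and 861 CPM to 563, 497 and 374 CPM (-1.10 ± 0.21, adjusted p = 0.00313). The count was 2 without fresh replicate 2, 5 without pH 6.9 replicate 6, 9 without fresh replicate 6, 10 without pH 6.9 replicate 4 and 0 with all 18 libraries. In the same comparison the class II genes summed to 94.4 to 237 CPM in fresh cells and 15.6 to 24.8 CPM at pH 6.9. The granulocyte and monocyte markers summed to 98.9 to 258 CPM and 28.9 to 43.8 CPM (S100a8 and S100a9 at 0 in both). The stem cell markers summed to 753 to 849 CPM and 1290 to 1780 CPM. Megakaryocyte markers summed to 394 to 556 CPM and 38.7 to 341 CPM, and erythroid markers to 228 to 506 CPM and 8.16 to 224 CPM. T and NK cell markers summed to 39.4 to 58.2 CPM and 4.84 to 10.3 CPM. The monocyte and macrophage, B cell, and mast cell and basophil lists overlapped. The part of these lists in the members' values was not tested. These comparisons share the pH 6.9 libraries with those against pH 7.4.

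In the remaining comparisons with fresh cells no member passed. In odd-numbered mice at pH 6.9, 43 of 50 members were positive with a median of 0.41 (all genes: 47.5% positive, 0.6% called), and 20 members had an unadjusted p under 0.05, against 13.6% of genes. Psme2 had the smallest p, with 694 and 680.5 CPM at pH 6.9 against 319 and 451 CPM in fresh cells (0.84 ± 0.24, adjusted p = 0.128). It passed with DESeq2 (adjusted p = 0.0348) and without the filter on low counts (adjusted p = 0.0442). After culture at pH 7.4 the odd-numbered mice had 40 of 50 members negative (median -0.22; 50.2% of genes positive, 0.113% called) and the even-numbered mice 37 of 50 (median -0.16; 51.6% of genes positive, 0.103% called). Members with an unadjusted p under 0.05 numbered 5 and 6, against 10.5% and 12.4% of genes, and 1 member, Psmg4, passed in even-numbered mice without the filter on low counts. Psmb7 had the smallest p in odd-numbered mice (-0.58 ± 0.18, adjusted p = 0.23) and Psmd13 of the lid in even-numbered mice (0.84 ± 0.29, adjusted p = 0.245). Over all 18 libraries, 42 of 50 members were negative in pH 7.4 culture (median -0.68; all genes 0.08, 55.6% positive) and 41 in pH 6.9 culture (median -0.12; all genes 0.02, 52% positive). There were 3 members, Psmc3ip, Psmb7 and Psmb5, with an unadjusted p under 0.05 in the first (3.77% of genes) and 0 in the second (2.27% of genes).

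Genes that work with the proteasome were called about as often as genes at large. Of 40 tested genes for ubiquitin supply, assembly, shuttling, p97 and peptide loading, 3 rose and 2 fell at pH 6.9 in odd-numbered mice, 1 rose and 2 fell in even-numbered mice, and 6 were called higher and 3 lower for the difference, with a median of 0.00 for the difference beside 1.13 for the 50 members. Over all genes 11.1% were called in odd-numbered mice, 6.75% in even-numbered mice and 18.1% for the difference, so these counts are near the background. Uchl5, a deubiquitinase docked on the cap, was the gene of this list called in both sets (0.67 ± 0.21, adjusted p = 0.0411, and -0.73 ± 0.19, adjusted p = 0.0252). Usp14, the other deubiquitinase at the cap, fell in even-numbered mice (-0.94 ± 0.21, adjusted p = 0.0111), and Tapbp, which loads peptides on class I molecules, fell in odd-numbered mice (-1.06 ± 0.25, adjusted p = 0.0119). The peptide transporter genes lie beside Psmb8 and Psmb9: Psmb9 lies at chr17:34181987-34187764, Tap1 at chr17:34187553-34197225, Psmb8 at chr17:34197721-34201454 and Tap2 at chr17:34203527-34216321. Psmb9 and Tap1 overlap on opposite strands, and in libraries without strand information reads from the shared stretch cannot be told apart. While Psmb8 rose in odd-numbered mice, Tap2 fell, from 98.1, 90.6 and 50.65 CPM at pH 7.4 to 24.9 and 30.2 CPM (-1.52 ± 0.38, adjusted p = 0.0157), and Tap1 had 0.43 ± 0.38 (adjusted p = 0.508). Nfe2l1, the Nrf1 transcription factor of proteasome genes, was not called, with 0.33 ± 0.54 and 0.62 ± 0.49 (adjusted p = 0.749 and 0.512), nor was the core assembly factor Pomp (0.43 ± 0.21 and -0.09 ± 0.19, adjusted p = 0.204 and 0.847).

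In several comparisons the members' fold changes varied with transcript length. The 10 shortest members, with transcripts of 555 to 1044 bases, had a median log2 fold change of 0.79 at pH 6.9 against pH 7.4 in odd-numbered mice with 5 called, and the 10 longest, of 2664 to 6491 bases, a median of 0.15 with 1 called. Between pH 6.9 culture and fresh cells in even-numbered mice the medians were -0.86 and -0.16, with 8 and 2 called. Over the 50 members, which share these libraries, the log2 length and the fold change had Pearson r = -0.61 and Spearman rho = -0.65 in the first comparison and 0.67 and 0.71 in the second. Over 10416 tested genes with a length r was -0.10 and rho -0.16 in the first comparison, and 0.10 and 0.12 in the second. For pH in even-numbered mice the members had r = 0.35 and rho = 0.25, with medians of -0.53 for the 10 shortest (1 called) and -0.40 for the 10 longest (2 called), and between odd-numbered and even-numbered mice at pH 7.4 both were 0.08. GC content had r = 0.12 and -0.19 over the members. In the libraries that stood apart, the values relative to the median of the 15 had r = -0.43 with log2 length in both. The 4 members below all 15 libraries in fresh replicate 4 were Psmc1 (1591 bases), Psmd3 (2148), Psmd2 (2961) and Psme4 (6491, the longest of the 50). The next longest, Psmd5 (4397 bases) and Psmf1 (3809 bases), lay above the median there, with log2 values of 1.23 and 0.70. These correlations over members are descriptions, and the part of transcript length in the members' values was not tested.

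**Figure D5:**
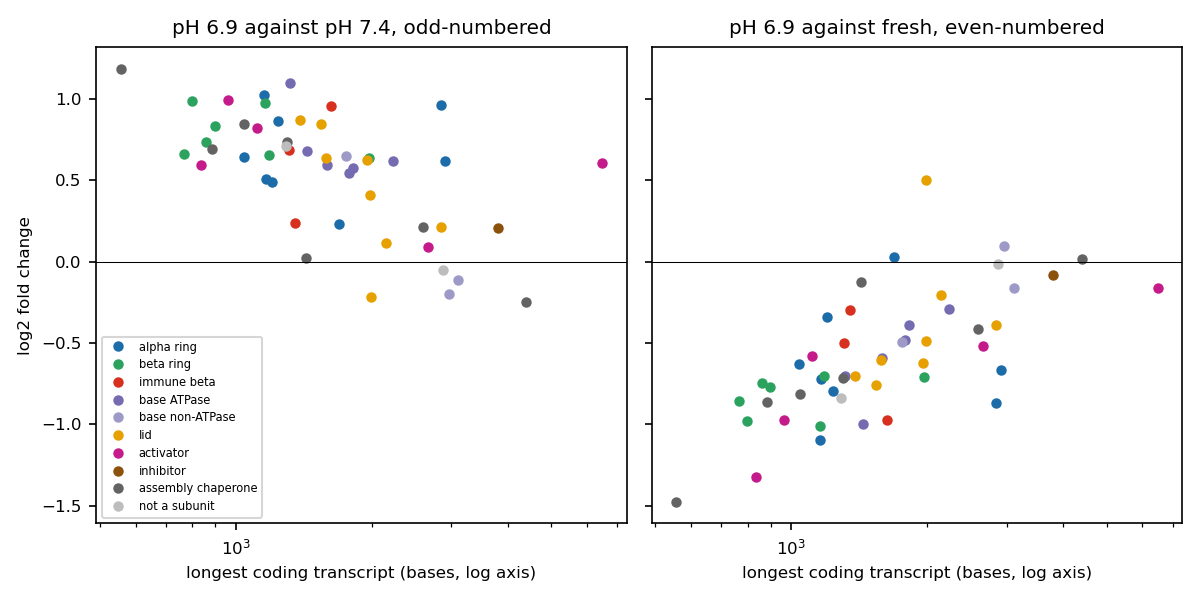
Length of the longest coding transcript (bases, log x axis) against the log2 fold change (y axis) of 50 proteasome genes for pH 6.9 against pH 7.4 in odd-numbered mice (left, r = -0.61) and pH 6.9 against fresh in even-numbered mice (right, r = 0.67). Points are genes, coloured by role. The median of the 10 longest is nearer 0 than that of the 10 shortest in both panels, but single long genes, such as Psme4 and Psma3 on the left, lie away from 0.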

How the data were processed

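RNA of 18 libraries was made into cDNA with SMART-Seq v4 and Nextera XT and sequenced as paired ends of 75 bp, per the labels' protocols, without strand information or molecular identifiers. The authors quantified reads with kallisto on mm10, without a version, per the submitters' processing notes, and deposited expected counts per gene symbol, all whole numbers. The sources used here do not say how transcripts were summed to genes. In edgeR 4.0.16 (R 4.3.3), genes passing filterByExpr entered robust quasi-likelihood tests on TMM-scaled libraries, with Benjamini-Hochberg adjustment over all genes tested and a threshold of 0.05. A fit by 3 groups used 18 libraries (10104 genes). A fit by 6 sets of group and mouse parity used the 15 libraries with at least 1e+05 counts and 10000 genes detected (10659 genes). CPM are on TMM-scaled totals. Members, related genes, markers and motifs were chosen with earlier results of these data known. Named are the catalytic and immune subunits, the activators and up to 2 members per other class called with the largest fold change in a pH contrast within a set, or else the smallest p. The design text names 6 mice, so equal numbers were read as the same mouse (same-number profiles correlated at a mean of 0.0477, others at -0.0226). The main fits and the ratio tests above did not use this pairing, which entered only among the alternatives. Coordinates and lengths are from GENCODE M21 on GRCm38 (mm10). In simulated data the pH comparison over 18 libraries recovered 4.48% of 2-fold and 59.1% of 4-fold changes. The odd-numbered fit recovered 0% of 1.5-fold and 23.9% of 2-fold changes, and the even-numbered fit 4.48% and 37.3%. A member that was not called may therefore still have changed. Alternatives were DESeq2 1.42.0, its size factors, limma 3.58.1 (voom with quality weights), no filter, the replicate block, the other set of libraries and each library left out in turn.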

Additional observations from a re-analysis of the deposited data

Results flagged for a closer look

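Differences between the pH effects of odd-numbered and even-numbered mice passed the interaction test of edgeR for 15 of the 22 named members, all higher in odd-numbered mice. Members were in part named for large changes in the same pH contrasts, so this share is raised by that choice; over all 50 members 31 passed, and of all genes 9.09% were called higher and 8.96% lower. The difference in log2 fold change was 1.63 for Psmb7, 1.33 for Psmb5 and 1.46 for Psmb6 among the active sites, and 1.63 for the immune subunit Psmb8. It was 1.76 for Psma7 and 1.63 for Psma3 of the alpha ring, 1.51 for Psmc5 and 1.42 for Psmc4 of the ATPases, and 0.95 for the ubiquitin receptor Psmd4. The lid genes Psmd14 and Psmd6 had 1.56 and 1.46, the activators Psme2 and Psme1 1.55 and 0.86, and the chaperones Psmg1 and Psmg3 1.70 and 1.36. Mouse parity and first index cannot be told apart in these libraries.

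Within groups of 6 libraries (5 for the ratios in fresh cells), 6 of 30 sets of values had a library far from the others. The sets share libraries, and most of the 6 belong to pH 6.9 replicate 3, which the fit by sets leaves out. This count therefore cannot be set against a chance rate for independent sets. In pH 6.9 replicate 3, Psmc5 stood at 1507 CPM against 250 to 637 CPM in the other 5, Psmb6 at 2508 CPM against 291.5 to 802 CPM, and Psmd1 at 313 CPM against 394 to 419 CPM. The log2 ratio of Psmb10 to Psmb7 in that library was -1.43, against 0.12 to 0.64 in the others. Psme3 had 0 CPM in fresh replicate 1, against 206 to 302 CPM in the others, but in that library of 6311 counts a 0 allows up to 3 counts or 240.5 CPM, so it cannot be told from those levels and is no outlier beyond counting error. The log2 ratio of Psmb8 to Psmb5 was 0.22 in pH 7.4 replicate 1, against 0.74 to 0.95 in the others.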

How the results depend on the processing

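In the 3 comparisons between whole groups no member was called under any alternative run, while the counts within sets depended on the fit. Without the filter on low counts, 5 members were called between odd-numbered and even-numbered mice at pH 7.4, and 1 each for pH 7.4 culture against fresh in even-numbered and pH 6.9 culture against fresh in odd-numbered mice; DESeq2 gave 5 and 1 for the first and last of these. With limma-voom, 24 members were called at pH 6.9 against pH 7.4 in even-numbered mice and 12 between odd and even at pH 7.4. With the mouse number as a replicate block, 11 members were called for pH in odd-numbered mice, and no other count moved by over 1.5 times. Odd and even mice are different animals, so a comparison between them cannot be estimated with that block. With all 18 libraries, counts were 0 for pH in either set and for the difference, 1 and 0 between odd and even at pH 6.9 and at pH 7.4, and 0 for pH 6.9 culture against fresh in even-numbered mice.

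Leaving out 1 library at a time gave 5 to 32 members for pH in odd-numbered mice, 0 to 4 in even-numbered mice, 25 to 35 for the difference, 13 to 28 between odd and even at pH 6.9, 0 to 7 at pH 7.4 and 2 to 17 for pH 6.9 culture against fresh in even-numbered mice. A set with 2 libraries then holds a lone library, which is assumed to vary like the others. Some signs turned. With limma-voom, Psmc5 and Psmg4 had -0.015 and -0.022 between pH groups, from 0.88 and 0.77, and Psme1 0.003 in even-numbered mice; with all 18 libraries the difference of Psme4 was -0.017. The log2 ratios of Psmb8 and Psmb10 to their counterparts between pH groups were -0.033 and 0.109 over 15 libraries. Leaving out a library spread the even-numbered values of Psme1 from -0.228 to 0.098 (0.028 and 0.006 also positive), of Psme4 from -0.049 to 0.337 (-0.041 also negative) and of Psmf1 from -0.207 to 0.06. The odd-numbered values of Psme3 ran from -0.163 to 0.314 (-0.123 also negative) and of Psmf1 from -0.061 to 0.445. The ratio differences ranged from -0.033 to 0.25 (Psmb8) and from -0.305 to 0.109 (Psmb10) between pH groups, and from -0.279 to 0.067 (Psmb8) and from -0.069 to 0.223 (Psmb9) for pH 6.9 culture against fresh. The cause was not tested. Fresh replicate 1, with 6311 counts, limits what can be said of low members in it.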
